A study of Mus musculus with 2 samples.

Results

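The 84 genes described here encode proteins of the cytosolic ribosome. They were chosen by symbol alone: 91 of the 26607 rows of the expression table carried a symbol made of Rpl, Rplp or Rps, a number, and at most 1 letter with further digits. Where rows shared a symbol, the row with the higher mean was kept, which left 84 genes of 26490 in all. Of these, 52 belonged to the large subunit (Rpl and Rplp symbols) and 32 to the small subunit (Rps symbols). The pattern also admits paralogs and copies such as Rpl7l1, Rpl10l and Rps19l2, and it misses some genes that encode ribosomal proteins under other names, of which Rpsa, Fau and Rack1 are given separately. The symbols Rplp1, Rps7, Rps9, Rps14 and Rps26 would fit the pattern, but none was among the 84 genes.

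Poly(A)-selected RNA of primary microglia, the macrophages that reside in the central nervous system, was sequenced as 2 libraries. One came from cells transfected with a control vector and the other from cells transfected with a vector meant to overexpress Per2, which encodes a clock protein that represses its own transcription. The sources used here do not give the strain, the age, the promoter of the vector or the time after transfection. Each group held 1 library, so no test was possible, no value has an SD and every ratio compares these 2 libraries only. Values are FPKM, which divide the fragments of a gene by its transcript length in kilobases and by the number of fragments mapped in the library, and the depth behind them is unknown. Log2 ratios set the Per2-labelled library over the control-labelled one after adding 1 FPKM, and a gene counted as past 2-fold where this ratio reached 1 or -1. Genes averaging 1 FPKM or more were compared, 12318 in all and among them 80 of the 84 ribosomal protein genes.

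The ribosome is built from ribosomal RNA and a fixed set of proteins, nearly all present once in each particle. The small subunit reads the messenger RNA and the large subunit joins the amino acids. Ribosomal protein mRNAs are short and abundant, and in mammals they begin with a run of pyrimidines, the terminal oligopyrimidine tract, through which the kinase mTOR and the RNA-binding protein LARP1 set their translation and stability. Rodent genomes hold many processed pseudogenes of these genes, so reads of 1 gene can be placed on another.

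Several facts of the whole series bear on every value below. Per2 itself had 6.90 FPKM under the control label and 0.927 under the Per2 label, against the direction the labels name, so the libraries are called by their labels throughout. The labels give the organism as mouse, whereas the gene identifiers and the named build are rat. The median log2 ratio of all genes compared was -0.18, and it was -0.37 after rescaling each library to TPM and 0.00 after centring on the median of ratios. Past 2-fold, 267 genes were higher under the Per2 label and 725 lower, a split that became 186 and 1388 with TPM and 521 and 459 with centring. Microglia markers summed to 3253 FPKM under the control label and 3015 under the Per2 label, with 8 of 11 lower and 2 higher in the Per2-labelled library, and Cx3cr1 listed at 0 in both. Tyrobp, the largest of these, had 1076 and 1364 FPKM, C1qa had 257 and 71.6, Csf1r had 51.5 and 21.7, and P2ry12 had 0.650 and 0.0802. Astrocyte markers summed to 424 and 189.8 FPKM with 7 of 7 lower in the Per2-labelled library, where 64.2% of all genes compared were lower, oligodendrocyte lineage markers to 36.1 and 20.9, neuronal markers to 39.97 and 27.1 with Rbfox3 at 0, and fibroblast and pericyte markers to 588 and 419. The part of these differences in the results was not tested, and in bulk RNA fewer cells of a type and less RNA per cell cannot be told apart.

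Ribosomal protein genes had higher FPKM in the Per2-labelled library almost without exception. Of the 80 genes compared, 76 (95.0%) had a log2 ratio above 0, whereas 35.8% of all genes did, and 4 lay below it, where 64.2% of all genes did. The median log2 ratio was 0.81, a fold of 1.75, and the middle 50% of the genes lay between 0.67 and 0.93. Past 2-fold, 13 were higher (16.2%), where the background was 2.17%, and 0 were lower, where the background was 5.89% (8.05% in either direction). With TPM, 75 genes lay above 0 (background 24.3%), 2 were past 2-fold higher (1.51%) and 0 lower (11.3%). With centring, 78 lay above 0 (50%), 43 were past 2-fold higher (4.23%) and 0 lower (3.73%). The summed FPKM of the 84 genes was 51322 in the control-labelled library, 7.78% of all FPKM, and 88322 under the Per2 label, 11.6% of all FPKM. The sum was thus 1.72 times as high in the Per2-labelled library, while the sum over all rows was 1.15 times as high.

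The order of the genes by level was much the same in both libraries, with a Spearman's rho of 0.978 over the 80 genes, which share both libraries. In the control-labelled library, 42 of 52 large-subunit and 29 of 32 small-subunit genes stood at 100 FPKM or more. At 1000 FPKM or more there were 6 large-subunit and 7 small-subunit genes under the control label, and 24 and 18 under the Per2 label. Far below the rest, 12 genes stayed under 50 FPKM in both libraries. These were Rpl9, Rpl35a, Rpl37 and Rpl38 of the large subunit, Rps29 of the small subunit, and the copies and paralogs Rpl3l, Rpl7l1, Rpl10l, Rpl30l1, Rpl39l, Rplp0l1 and Rps4y2. The first 5 are core proteins of every ribosome, and whether their reads were placed on copies elsewhere was not tested.

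**Figure D1:**
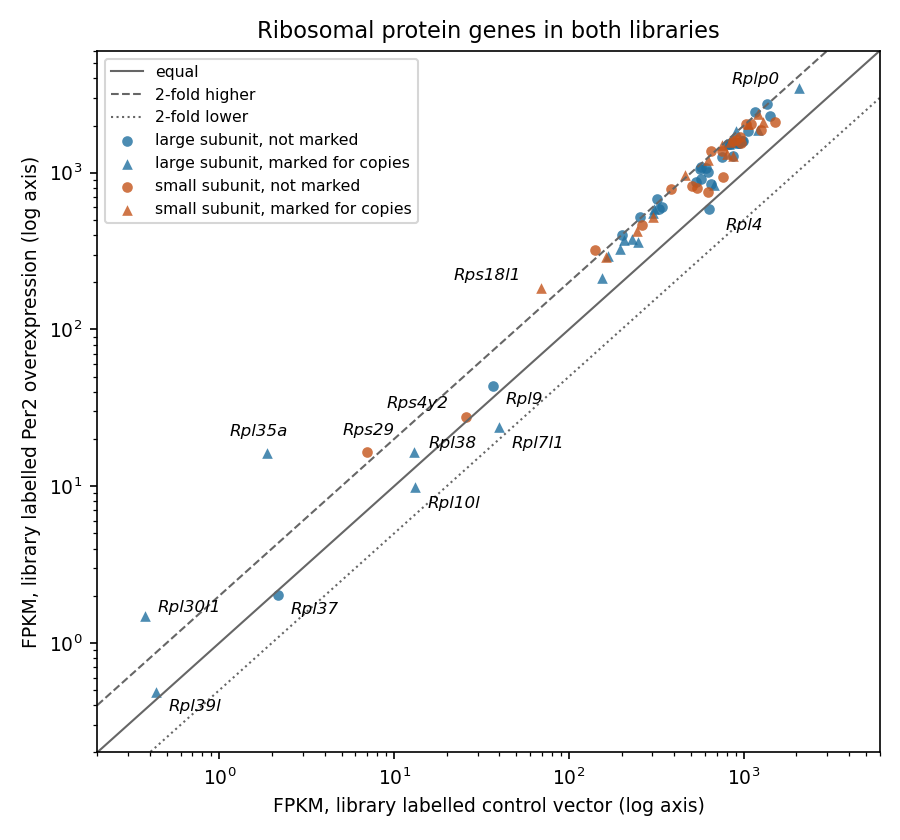
FPKM of each ribosomal protein gene in the control-labelled library (x, log axis) and in the Per2-labelled library (y, log axis), 1 point per gene, with genes listed at 0 in a library left out. Triangles mark genes that have a copy in the table by symbol or are one. Most points lie in a narrow band between the line of equality and the 2-fold line, and the points that leave it are mostly genes under 50 FPKM.

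The log2 ratios ran from -0.72 to 2.60 in the large subunit and from 0.10 to 1.39 in the small one. Genes that have a copy by symbol or are one held both ends of the large subunit. Without such genes the ratios ran from -0.11 to 1.08 (large) and from 0.10 to 1.17 (small). The 0.10 is that of Rps4y2, a relative of Rps4x that the symbol rule did not mark. The next lowest unmarked gene of the small subunit was Rps12 (0.27). Of the 48 large-subunit genes compared, 44 had a log2 ratio above 0 (91.7%, where 35.8% of all genes did) and 4 below. Their median was 0.75, and 6 were at least 2-fold higher (12.5%, background 2.17%). Median FPKM of the large subunit was 616 under the control label and 955 under the Per2 label. The most abundant of its genes was Rplp0, the base of the stalk that recruits translation factors, with 2061 FPKM under the control label and 3454 under the Per2 label. Rpl41, the smallest ribosomal protein, had 1354 and 2759.6 FPKM, and Rpl19 had 1418 and 2301. All of these were higher in the Per2-labelled library, and of the 3 only Rpl41 (log2 ratio 1.03) was past 2-fold.

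The highest ratio was that of Rpl35a, at 1.86 FPKM under the control label and 16.4 under the Per2 label (log2 ratio 2.60). This level is far below that of nearly all other ribosomal protein genes. Rpl35al1, its copy by name, had 1.95 and 19.5 FPKM, so both values are uncertain. Rplp2, an acidic protein of the stalk, had 320.2 and 676 FPKM (1.08). Its partner Rplp1 was not among the genes described here. Rpl36 had 904 and 1849.6 FPKM (1.03) and Rpl28 had 256 and 519 (1.01). Apart from Rpl35a, these large-subunit genes thus sat just over the limit.

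At the other end of the large subunit, 4 genes had lower values in the Per2-labelled library. Rpl7l1, a paralog of Rpl7, had 39.8 FPKM under the control label and 23.8 under the Per2 label (log2 ratio -0.72), while Rpl7 itself had 153.7 and 213 (0.47). Rpl10l, a retrogene known for its role in the testis, had 13.1 and 9.83 FPKM (-0.38), while Rpl10 had 1201 and 1884 (0.65). In both pairs the paralog was the scarcer gene and the only one of the pair that was lower. Rpl4 was the only abundant ribosomal protein gene with a lower value, at 632 and 588 FPKM (-0.11, and 0.11 after centring). Rpl37 had 2.16 and 2.01 FPKM (-0.07, and 0.07 after centring). Rpl9 had 36.8 and 43.7 FPKM (0.24).

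Rpl5 and Rpl11 form a particle with a small ribosomal RNA that restrains the p53 inhibitor MDM2. Rpl5 had 648 FPKM under the control label and 844 under the Per2 label (log2 ratio 0.38), and Rpl11 had 837 and 1526 (0.86). The ratio of Rpl5 lay below the band of the middle 50% and that of Rpl11 inside it. Rpl3, which shapes the centre where amino acids are joined, had 676 and 833 FPKM (0.30), and its muscle paralog Rpl3l had 0.123 FPKM and was listed at 0 in the other library.

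All 32 small-subunit genes had a log2 ratio above 0, where 35.8% of all genes did, with a median of 0.84, and 7 were at least 2-fold higher (21.9%, background 2.17%). Median FPKM was 749.96 under the control label and 1292 under the Per2 label. Rps2, which lies near the entry of the mRNA channel, had the highest level of the small subunit under the control label and in the mean of both libraries, at 1512 and 2107 FPKM (0.48). Rps18 had 1214 and 2358 FPKM (0.96), and Rps27a, made as a fusion with ubiquitin, had 1286 and 2095 (0.70). None of these 3 was past 2-fold.

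Rps18l1, a copy of Rps18 by name, had the highest ratio of the small subunit, with 69.4 FPKM under the control label and 183.8 under the Per2 label (log2 ratio 1.39). Rps13 had 140.9 and 319 FPKM (1.17) and Rps29 had 7.01 and 16.5 (1.13). Rps27 had 464 and 962 FPKM (1.05), Rps21 had 384 and 785 (1.03) and the copy Rps19l2 had 746 and 1494 (1.00). Of the small-subunit genes past 2-fold, Rps29 and Rps19l2 were under the limit when 5 FPKM was added in place of 1. Rps19, known as a gene of Diamond-Blackfan anaemia in humans, had 303 and 524 FPKM (0.79).

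The smallest differences of the small subunit belonged to Rps4y2, Rps12 and Rps3a. Rps4y2 had 25.8 FPKM under the control label and 27.7 under the Per2 label (log2 ratio 0.10, and -0.10 with TPM), beside 866 and 1271 (0.55) for its X-linked relative Rps4x. Rps12, a sensor of cell competition in flies, had 626 and 753 FPKM (0.27). Rps3a had 758 and 939 FPKM (0.31). Rps6, the substrate of the kinase that mTOR activates, had 542 and 796 FPKM (0.55), and Rps3, which also repairs DNA, had 969 and 1541 (0.67).

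The subunits differed little from each other. The median log2 ratio was 0.09 higher in the small subunit than in the large one, against an interquartile range of 0.66 to 0.89 in the large subunit and 0.69 to 0.97 in the small one. The summed FPKM was 1.71 times as high in the Per2-labelled library for the large subunit and 1.73 times for the small one. With the trend with transcript length removed the sign turned, and the small subunit was lower by 0.10. Genes share the 2 libraries and are not replicates, so this difference has no test.

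**Figure D2:**
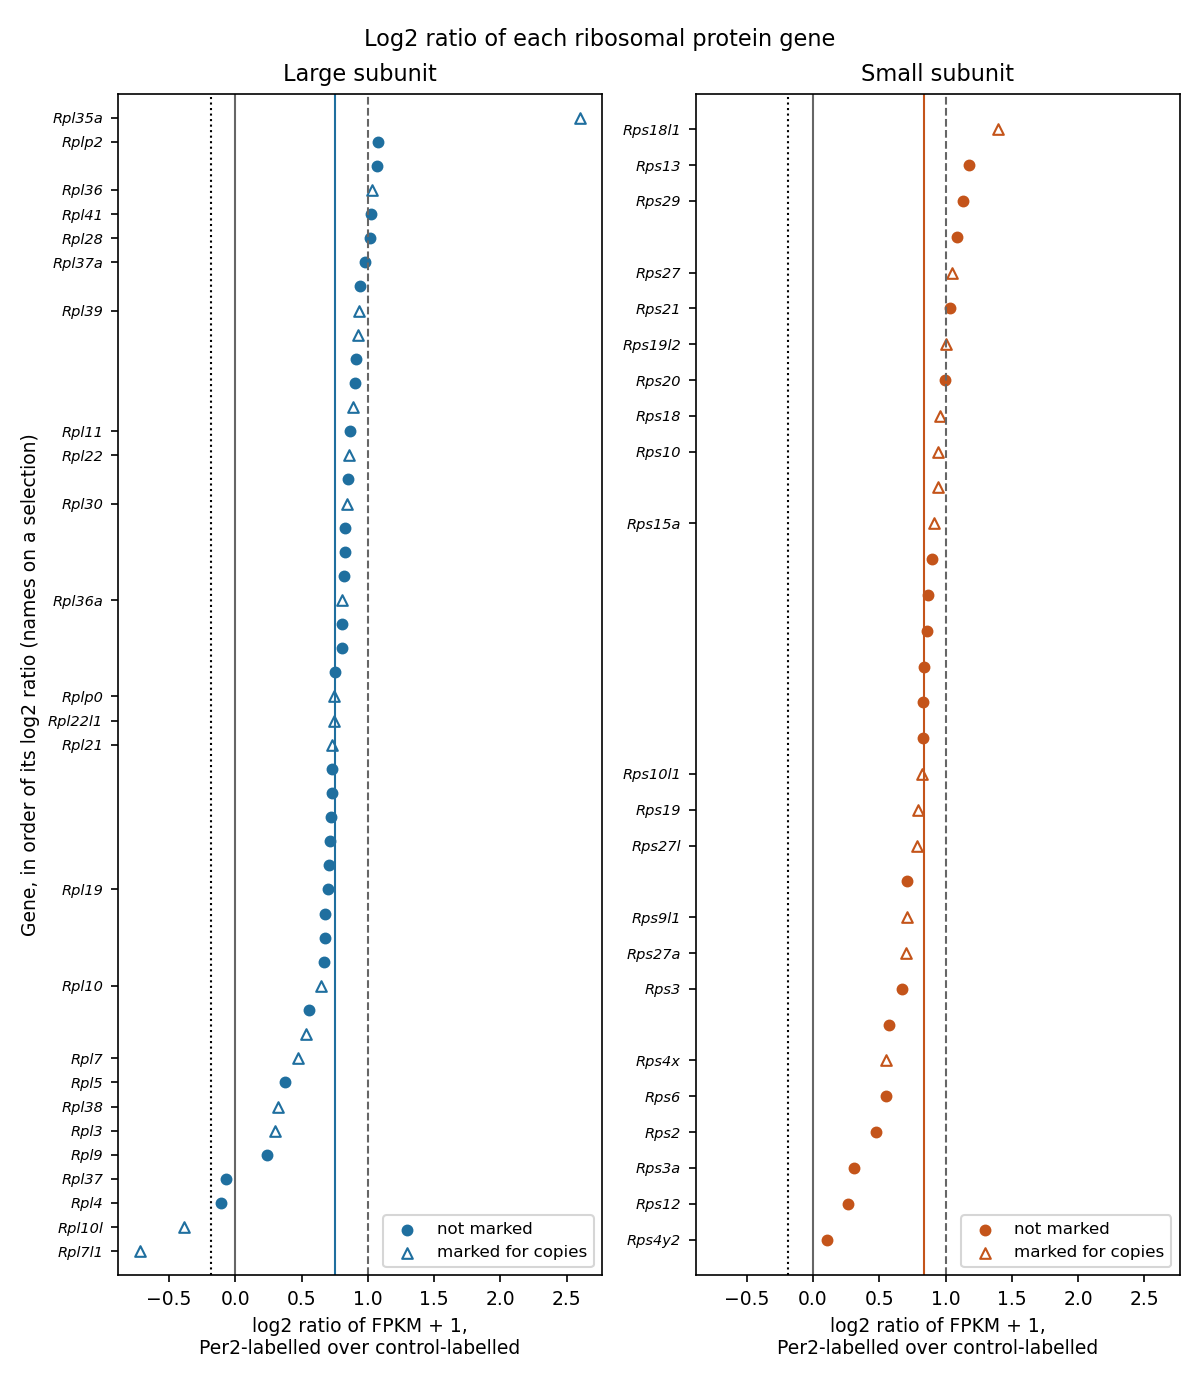
Log2 ratio of FPKM + 1 (x) for each large-subunit (left) and small-subunit (right) gene compared, in order of the ratio (y), with names on a selection. Coloured lines give the subunit medians (0.75 and 0.84), the dashed line 2-fold and the dotted line the median of all genes compared (-0.18). Triangles mark genes with copies, which hold both ends of the large subunit.

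The start of the message is where these genes are known to carry their shared signal, so the 5′ ends of the genes at both ends of the ratios are shown. RefSeq start sites of the mouse genes (GRCm38.p6) were found for 58 of the 84 symbols. The longest unbroken run of C or T was sought from 20 bases before to 50 bases after the annotated start, on the coding strand, since annotated starts can lie some way from the site used. Where a gene had several annotated starts, the start with the longest run was kept. Runs were counted within this window only, and those of Rpl41 and Rps2 end at its edge. Each line gives 30 bases of mouse sequence, 5′ to 3′, with the longest run in capitals. First come the 3 highest of the large subunit, then its 3 lowest, then the same for the small subunit. Only genes that were compared and had a start site were ranked.
Rpl35a, chr16:33056472-33056501, plus strand: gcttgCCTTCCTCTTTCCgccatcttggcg
Rplp2, chr7:141447641-141447670, plus strand: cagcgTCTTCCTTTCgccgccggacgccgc
Rpl41, chr10:128549119-128549148, minus strand: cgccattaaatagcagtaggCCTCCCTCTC
Rpl4, chr9:64173407-64173436, plus strand: gcgtggCCTTCTCCTCTCCCCgtcatggtg
Rpl10l, chr12:66284387-66284416, minus strand: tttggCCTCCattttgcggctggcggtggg
Rpl7l1, chr17:46782651-46782680, minus strand: ccccgCCCggtgaggctgcgcaagcgcagt
Rps13, chr7:116334154-116334183, minus strand: cgtcaCTTCCTgtgcggcttgatttcctgt
Rps27, chr3:90213626-90213655, minus strand: tttcgCTCCTTTCCggcggtgacgacctcc
Rps21, chr2:180257399-180257428, plus strand: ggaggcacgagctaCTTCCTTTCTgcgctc
Rps6, chr4:86857344-86857373, minus strand: tcgggCCTCTTTTTCgtgacgcctcccagg
Rps2, chr17:24720083-24720112, plus strand: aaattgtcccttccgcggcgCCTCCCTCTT
Rps12, chr10:23787177-23787206, minus strand: gccggCCTTTTCCCCTgccgccgccgactt

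The lowest paralogs had short runs, of 3 bases in Rpl7l1 and 5 in Rpl10l, but so did Rps13 (6), one of the highest, and Rpl4 had one of 15. A run of at least 8 was present in 45 of 58 ribosomal protein genes (77.6%), and in 28.5% of the 27025 genes with a start site in the same window. The median run was 10 bases in ribosomal protein genes and 6 in all genes. Among genes compared, the 44 with such a run had a median log2 ratio of 0.81 and the 12 without it one of 0.75. The letters CCGGAAG or CTTCCGG, the core bound by the ETS factor GABP, occurred from 250 bases before to 50 after the start in 22 of 58 genes (37.9%) and in 9.93% of all genes. The median log2 ratio was 0.83 with these letters (21 genes) and 0.76 without (35 genes). The letters AAGATGG or CCATCTT, the core bound by YY1, occurred in 13.8% against 7.28%, TATAAA or TTTATA, the TATA box, in 12.1% against 15.7%, and CACGTG, the E-box, which reads the same on both strands and is bound by MYC and by CLOCK-BMAL1, in 10.3% against 8.09%. Letters were counted as present where any annotated start of a gene had them. A gene with several starts thus had more windows to match, for runs and letters alike. These are matches of letters in mouse sequence and describe no binding.

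Within the group, the longer the coding sequence, the smaller was the ratio. Over the 74 genes with a mouse gene of the same symbol, the coding length and the log2 ratio had a Spearman's rho of -0.59, and it was -0.49 over all 10108 genes with a length. These genes share 2 libraries, and no p is given. The 9 ribosomal protein genes with a coding length of at most 300 nt had a median fold of 1.97, and the 188 other genes of that length one of 1.35. The folds were 1.82 and 1.30 from 301 to 400 nt (15 and 277 genes), and 1.79 and 1.21 from 401 to 500 nt (20 and 366 genes). They were 1.70 and 1.13 from 501 to 600 nt (6 and 464 genes), 1.60 and 1.05 from 601 to 800 nt (17 and 1009 genes), and 1.39 and 0.913 from 801 to 1500 nt (7 and 3406 genes). Ribosomal protein genes and other genes thus declined together, with the ribosomal protein genes above in each range.

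**Figure D3:**
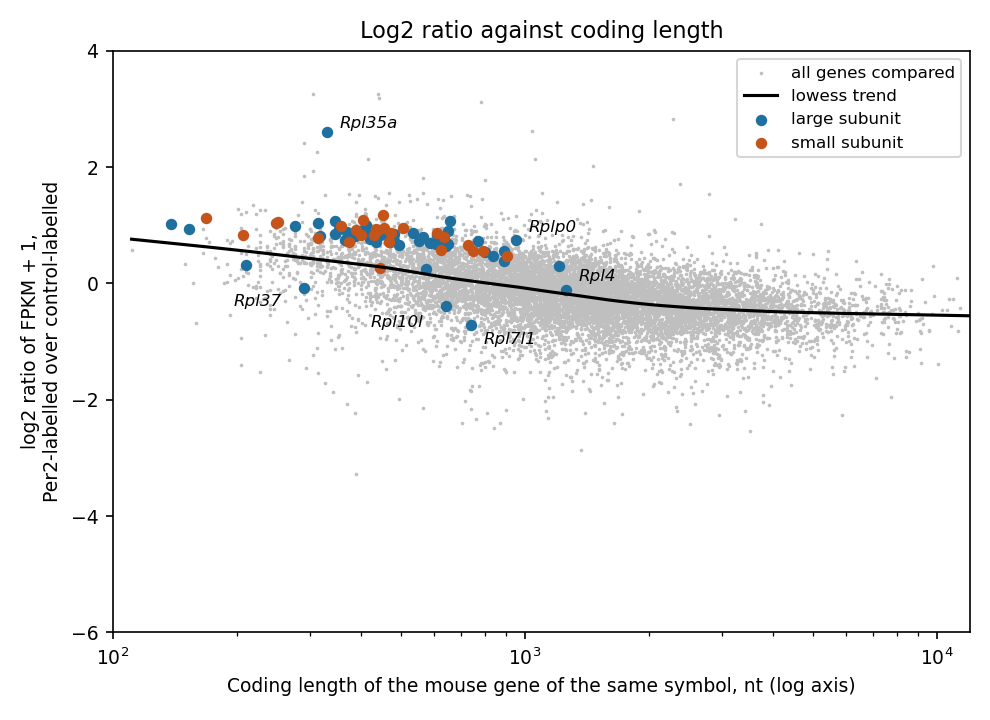
Log2 ratio of FPKM + 1 (y) against coding length in nt of the mouse gene of the same symbol (x, log axis), 1 point per gene, with genes beyond the axis not drawn. The black line is the lowess trend over all genes with a length. Most ribosomal protein genes lie above the trend and slope with it, from Rpl41 at 1.03 to Rpl4 at -0.11. Rpl7l1, Rpl37, Rpl10l, Rpl38 and, by little, Rps12 lie below the trend.

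With the trend with coding length removed, a step that also recentres the ratios, 69 of 74 ribosomal protein genes lay above 0, where 50.1% of all genes did, and their median was 0.54. Only Rpl35a (2.20) was then at least 2-fold higher, against a background of 1.04%. With the length of the longest protein-coding mouse transcript in place of the coding length, the median was 0.33, 68 of 74 lay above 0 against 49.3% of all genes, and 4 were at least 2-fold higher, against 1.31%. Those 4 were Rpl35a (1.86), Rps15a (1.33), Rps20 (1.32) and Rpl18 (1.04). The longest mouse transcripts of Rps15a (5179 nt), Rps20 (3706 nt) and Rpl18 (2989 nt) are many times their coding lengths of 390, 357 and 564 nt, so this length may not be that of the transcripts in these cells. None (0) was at least 2-fold lower either way, where 2.68% (coding length) and 2.37% (transcript length) of all genes were.

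Ribosomal protein genes are also more abundant than most in this table, and over all 12318 genes the mean FPKM and the log2 ratio had a Spearman's rho of 0.275. The 966 other genes averaging 100 FPKM or more had a median log2 ratio of 0.22. Among the 323 other genes that were both at least that abundant and at most 600 nt in coding length, the median was 0.47, 87.0% lay above 0 and 11 (3.41%) were at least 2-fold higher. The 45 ribosomal protein genes within the same limits had a median of 0.86, all 45 lay above 0 and 8 (17.8%) were at least 2-fold higher. The interquartile ranges were 0.21 to 0.69 for the other genes and 0.78 to 0.95 for the ribosomal protein genes. This difference has no test.

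Near-identical copies limit what single values mean. By symbol, 35 of the 84 genes were marked as uncertain, either because rows shared the symbol, because another row was named as a copy, or because the gene was itself a copy by name. The 49 unmarked genes, all of which were compared, had a median log2 ratio of 0.80, with 47 above 0 and 8 at least 2-fold higher (16.3%, background 2.17%), and the 31 marked genes compared had one of 0.81. Among the 76 genes with a mouse counterpart, 67 had at least 1 other annotated mouse gene or pseudogene with 90% identity over 80% of the coding sequence. Over all 76 the median was 8 such copies, with up to 77 for Rpl21. The number of such copies and the log2 ratio had a Spearman's rho of -0.11 over 74 genes.

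Rows that shared a symbol mostly, but not always, went the same way. Rpl21 had 4 rows, at 228.04, 211, 123.3 and 15.1 FPKM under the control label and 379.6, 327, 245 and 5.19 under the Per2 label, so the scarcest went against the other 3. The rows of Rpl7a had 249.5 and 220.4 FPKM under the control label and 362 and 319 under the Per2 label. The second row of Rps27a had 275 and 391 FPKM, that of Rpl32 had 34.2 and 62.4, and that of Rpl38 had 10.5 and 16.1, beside 13.0 and 16.5 for its first. In each of these 4 genes both rows were higher in the Per2-labelled library. Summing the rows of a symbol left the count past 2-fold at 13 and the median at 0.81.

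Paralogs and named copies were mostly higher too. Rps27l, a p53 target that resembles Rps27, had 246 FPKM under the control label and 424 under the Per2 label (log2 ratio 0.78), and Rpl22l1, the paralog of Rpl22, had 195.6 and 328 (0.74) beside 304 and 553 for Rpl22 (0.86). Rps10l1 had 163.5 and 289.7 FPKM (0.82) beside 623 and 1200.3 for Rps10 (0.95), and Rps9l1 had 804 and 1313 (0.71). All of these were higher in the Per2-labelled library. Rpl36al had 125.3 and 241 FPKM (0.94) beside 167.7 and 295 for Rpl36a (0.81), Rps15al4 had 17.1 and 35.1 (1.00) beside 839 and 1581 for Rps15a (0.91), and the pseudogene Rps4x-ps9 had 173 and 190.5 (0.13). The paralogs Rpl39l (0.435 and 0.485 FPKM) and Rpl30l1 (0.376 and 1.48) were under the expression limit, beside 307 and 588 for Rpl39 (0.93) and 207 and 373 for Rpl30 (0.85), and Rplp0l1 was listed at 0 in both libraries.

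Of the ribosomal protein genes whose symbols the pattern misses, 3 are given here. Rpsa had 1352 FPKM under the control label and 2171 under the Per2 label (log2 ratio 0.68) and Rack1, a scaffold on the small subunit, had 775 and 1269 (0.71). Fau, whose product is cleaved into a ubiquitin-like protein and a small-subunit protein, had 105.9 and 104.2 FPKM (-0.02, with a sign that turned under centring). Rpsa and Rack1 lay between the lower quartile (0.67) and the median (0.81) of the ribosomal protein genes, and Fau lay above 4 of the 80 compared.

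Other parts of the translation machinery were set beside them, and their counts are to be read against the 35.8% of all genes that were higher, the 2.17% past 2-fold higher and the 5.89% past 2-fold lower. Of 17 translation factors and other mRNAs known to begin with a pyrimidine tract, 11 were higher (64.7%), 0 were past 2-fold and the median log2 ratio was 0.11 (-0.09 with TPM). Eif3k, a subunit of an initiation factor, had 131 and 202 FPKM (0.63) and Pabpc1, which binds the poly(A) tail, had 388 and 258 (-0.59). Ribosome assembly factors lay near all genes, with 14 of 40 higher (35.0%), 1 past 2-fold higher (2.5%) and a median of -0.19 (0.02 after centring). Of these, Nhp2, a protein of the particles that modify ribosomal RNA, had 40.4 and 103.9 FPKM (1.34) and Sdad1 had 11.6 and 6.10 (-0.83). RNA polymerase I and its factors, which make the large ribosomal RNA precursor, had 5 of 14 higher (35.7%), 0 past 2-fold and a median of -0.18 (0.01 after centring), with Twistnb at 5.25 and 3.11 FPKM (-0.60) and Taf1b at 2.92 and 1.81 (-0.48).

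Regulators and chaperones of ribosomal proteins showed no common direction with them. Of 15 genes of mTOR signalling and other control, 4 were higher (26.7%, where 35.8% of all genes were) and the median log2 ratio was -0.28 (0.02 with the transcript length trend removed). Eif4ebp2 had 5.02 and 1.77 FPKM (-1.12) and was the only one past 2-fold, while Eif4ebp1, which encodes a repressor of the same family, had 105.3 and 185.4 (0.81). Chaperones of single ribosomal proteins had a median of 0.01 over 7 genes (-0.19 with TPM), with Pdcd2l at 10.7 and 17.3 FPKM (0.64) and Nap1l1 at 99.9 and 69.3 (-0.52).

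Other large complexes with short transcripts shifted in the same direction as the ribosomal proteins, by less. Of 75 proteins of the mitochondrial ribosome, 65 were higher (86.7%, where 35.8% of all genes were), 0 were past 2-fold and the median log2 ratio was 0.39. Mrpl54 had 79.98 and 157 FPKM (0.97) and Mrps18c had 16.1 and 32.1 (0.96). Of 83 nuclear genes of the respiratory chain and ATP synthase, among them complex I assembly factors and the ATPase inhibitor Atp5if1, 74 were higher (89.2%), 2 were past 2-fold (2.41%, background 2.17%) and the median was 0.64. Those were Cox6a2 (0.942 and 6.003 FPKM, 1.85) and Atp5f1e (242 and 492, 1.02). With the trend with coding length removed the medians were 0.21 for the mitochondrial ribosome (75 genes), 0.32 for the respiratory chain (65 genes) and 0.54 for the ribosomal protein genes (74 genes). No gene with an Atp5 symbol had a mouse gene of the same symbol, so the 65 include no subunit of ATP synthase. The differences between the lists have no test.

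**Figure D4:**
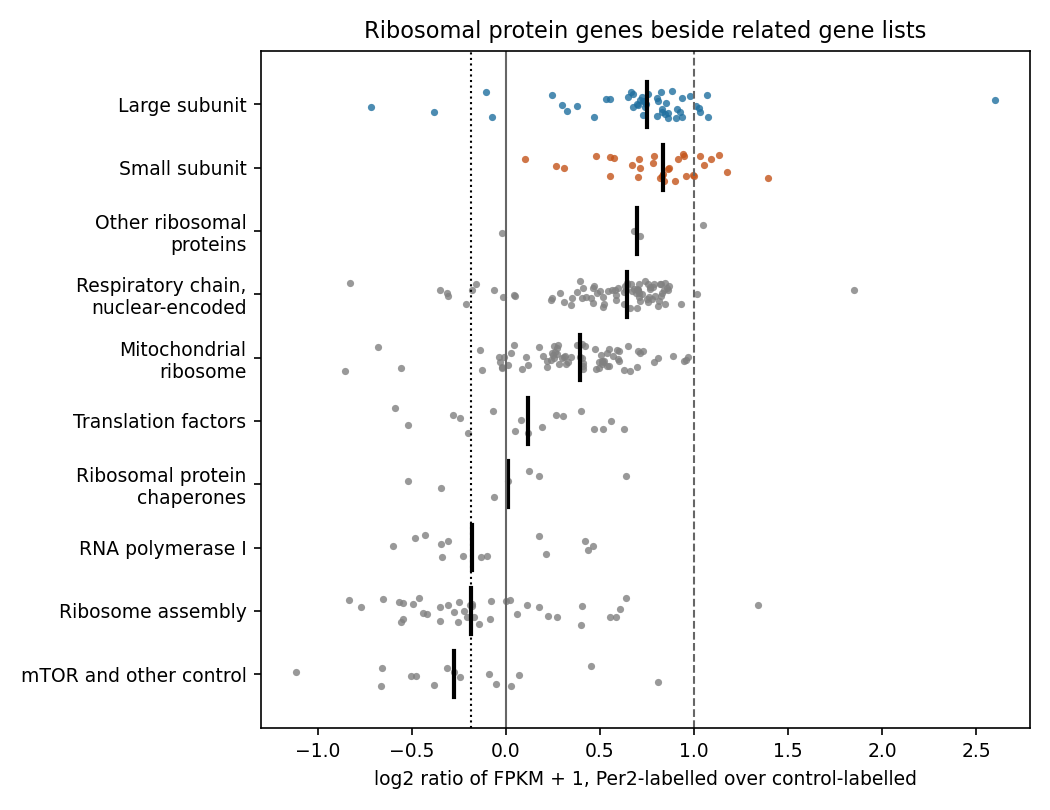
Log2 ratio of FPKM + 1 (x) of each compared gene in the ribosomal protein genes by subunit and in related lists (y), with vertical offsets only to separate points. Thick bars are medians, the dotted line is the median of all genes compared (-0.18) and the dashed line 2-fold. The subunit medians are 0.75 and 0.84, and those of ribosome assembly and RNA polymerase I are -0.19 and -0.18.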

How the data were processed

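The authors deposited 1 table of FPKM values, 1 per gene and library. Per the labels' protocols, mRNA was captured on oligo(dT) beads, fragmented and primed with random hexamers, fragments of 300 to 400 bp were selected on beads, and no step that marks the strand is named. The submitters' processing notes name HISAT2, StringTie, DESeq2, edgeR and the rat build Rnor_6.0, with neither versions nor settings. Rat Ensembl identifiers were on 22050 rows, and no coordinates of that build are given. The members and gene lists were chosen with earlier results of these data known.

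From the deposited FPKM, log2 ratios with a pseudocount of 1 were computed for genes averaging 1 FPKM or more, after keeping the higher row of each symbol (pandas 2.3.3, Python 3.11.15). Values with a length trend removed are residuals from a lowess fit (statsmodels 0.14.6, span 0.3) on the log2 coding length or longest transcript of the mouse gene of the same symbol in GENCODE M21. Mouse copies were sought among GENCODE M21 transcripts with blastn 2.17.0. The code was tested on simulated data. Genes were marked as uncertain where rows shared the symbol or another row's symbol was the gene's symbol followed by l, al, -ps or -like with any digits, which also marks Rpl35, Rpl36 and Rps15 for copies named after Rpl35a, Rpl36a and Rps15a. Genes that are copies by name were marked as well, a choice made after seeing the data. Protein identity was not used here. Named genes are the members past 2-fold, the 5 highest and 5 lowest ratios and 3 highest and 3 lowest levels of each subunit, paralog pairs, members with known further roles, and the 2 largest absolute ratios of each other list. Some genes that this rule names are not reported here. Alternatives were other pseudocounts, filters, scalings, row sums and removal of marked genes or of genes under 50 FPKM.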

Additional observations from a re-analysis of the deposited data

How the results depend on the processing

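No result turned its direction under a pseudocount of 0.1 or 5, no filter, or summed rows, among the counts, medians and lists computed. The count of ribosomal protein genes at least 2-fold higher depended on the scaling: it was 2 with TPM (1 large, 1 small), 43 after centring on the median of ratios (23 large, 20 small), 4 with the transcript length trend removed (2 large, 2 small) and 1 with the coding length trend removed (1 large, 0 small), against 13. With TPM, 75 of 80 genes stayed above 0. Without the marked genes the count was 8 of 49 (4 of the small subunit) and 47 lay above 0. The share of summed FPKM of these unmarked genes was 5.19% under the control label and 7.67% under the Per2 label. Both are below the shares of all members by construction of fewer genes. Without the 12 genes under 50 FPKM, added after seeing the data, the count was 11 and the median 0.82. Medians moved by over 0.25 only with a length trend removed. By transcript length they moved to 0.33 for all members, 0.35 for the large subunit and 0.26 for the small one. By the same length they moved to 0.17 for the respiratory chain and 0.0248 for mTOR and other control. By coding length, which was added after seeing the data, they moved to 0.54 for all members and 0.55 for the small subunit. With coding length they also moved to 0.32 for the respiratory chain, -0.0179 for mTOR and other control and 0.0906 for ribosome assembly. For the respiratory chain the values with a length trend removed cover 65 genes, none of them with an Atp5 symbol. The small subunit's median minus the large one's turned to -0.10 by transcript length. Lists near 0 turned: translation factors to -0.0882 and chaperones to -0.19 with TPM, ribosome assembly to 0.0180 and RNA polymerase I to 0.0136 after centring, RNA polymerase I to 0.0419 with a mean of at least 5 FPKM, mTOR and other control to 0.0248 and chaperones to -0.0088 by transcript length, and ribosome assembly to 0.0906 and RNA polymerase I to 0.0665 by coding length. The cause was not tested. No paired analysis was possible because each group held 1 library, so no library could be left out either, and the unknown depth sets no interval on any value.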
